A study of Mus musculus with 9 samples.

Results

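The genes described here are 10 immediate early genes, Fos, Fosb, Jun, Junb, Jund, Egr1, Atf3, Ier2, Zfp36 and Dusp1, out of the 35013 gene symbols listed in bulk RNA-Seq tables from the mouse small intestine. They were taken by name, all 10 were found in both deposited tables, and all 10 passed the filter on low values (a mean of at least 10 normalized counts over the 6 libraries of a table). The libraries came from 3 populations of sorted epithelial cells with 3 replicates each, 9 libraries in all. Every population came from NFKO mice, which carry Neurog3Cre, FoxO1 f/f and Rosa26tdtomato, so that Cre driven by Neurog3 removes floxed FoxO1 and turns on Tomato in cells that descend from Neurog3 progenitors of the enteroendocrine (EEC), goblet and Paneth lineages. CD24negTomato+ and CD24+Tomato+ cells are that lineage, divided by surface CD24, and Tomatoneg cells are the other epithelial cells of the same genotype. The mice were 4 to 6 weeks old, the intestine was brought to single cells, and the cells were stained for CD24 and Epcam before sorting. No library of another genotype was analysed here, so every difference is between cell populations of NFKO mice, and lineage and FoxO1 deletion cannot be told apart. Each Tomato+ population has a table of its own, and the Tomatoneg libraries were placed in both, so the comparisons share their Tomatoneg cells and each is given by its own values.

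Immediate early genes are transcribed within minutes of a stimulus, without new protein synthesis, when growth factors, mechanical strain, cytokines or cell isolation activate MAP kinases, which phosphorylate factors such as SRF partners and CREB already bound to their promoters. FOS and JUN proteins pair to form AP-1, EGR1 is a zinc finger factor, and ZFP36 and DUSP1 close the loop, ZFP36 by destroying mRNAs that hold AU-rich elements and DUSP1 by removing phosphate from MAP kinases. Most of their mRNAs are short-lived, though not all to the same degree, and in the intestinal epithelium many of these genes respond to injury and to the dissociation of tissue into cells.

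Promoter sequence was read for 8 of the 10 genes from RefSeq (GRCm38.p6), as the 250 bases before the annotated start, and 5 are shown. Those shown include Jun, in which none of the motifs below was found, and leave out Junb and Atf3, which held a match. The windows are chr12:85473640-85473889 on the plus strand for Fos, chr7:19310046-19310295 on the minus strand for Fosb, chr4:95052223-95052472 on the minus strand for Jun, chr7:28379229-28379478 on the minus strand for Zfp36 and chr17:26508473-26508722 on the minus strand for Dusp1. Each is written 5′ to 3′ on the strand of its gene, and capitals mark the motifs found.
Fos: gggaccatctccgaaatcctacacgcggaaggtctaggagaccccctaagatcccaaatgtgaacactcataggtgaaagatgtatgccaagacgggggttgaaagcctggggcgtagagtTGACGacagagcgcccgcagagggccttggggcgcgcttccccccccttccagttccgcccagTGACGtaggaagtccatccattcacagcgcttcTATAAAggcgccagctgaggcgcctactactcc
Fosb: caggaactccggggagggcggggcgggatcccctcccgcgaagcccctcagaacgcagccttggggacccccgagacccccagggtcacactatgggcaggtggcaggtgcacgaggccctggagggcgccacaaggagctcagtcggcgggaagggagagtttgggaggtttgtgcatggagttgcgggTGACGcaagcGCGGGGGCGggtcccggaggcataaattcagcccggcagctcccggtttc
Jun: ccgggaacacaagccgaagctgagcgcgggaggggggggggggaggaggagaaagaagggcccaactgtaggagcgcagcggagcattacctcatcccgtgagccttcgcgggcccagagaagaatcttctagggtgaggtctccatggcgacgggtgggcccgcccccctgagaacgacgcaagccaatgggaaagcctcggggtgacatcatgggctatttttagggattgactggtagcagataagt
Zfp36: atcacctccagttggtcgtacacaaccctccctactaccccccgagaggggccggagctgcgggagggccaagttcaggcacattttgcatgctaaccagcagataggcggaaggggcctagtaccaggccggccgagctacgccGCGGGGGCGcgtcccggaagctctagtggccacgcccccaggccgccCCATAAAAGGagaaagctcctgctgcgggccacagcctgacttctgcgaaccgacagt
Dusp1: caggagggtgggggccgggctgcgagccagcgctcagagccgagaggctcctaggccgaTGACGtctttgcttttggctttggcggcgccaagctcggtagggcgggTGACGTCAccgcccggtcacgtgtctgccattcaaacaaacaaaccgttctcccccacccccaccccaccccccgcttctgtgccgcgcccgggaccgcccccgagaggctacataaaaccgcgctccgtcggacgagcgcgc

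The motifs searched on both strands were the cyclic AMP response element TGACGTCA, its half-site TGACG (which the full element contains on each strand), the AP-1 site TGANTCA, the CArG box bound by SRF, the EGR site GCGNGGGCG and TATAAA. The full cyclic AMP response element was present in Dusp1 alone, 143 to 136 bases before the start, and in 1.55% of 32851 windows of the same length. The half-site was found in 5 of the 8 genes (Fos, Fosb, Junb, Atf3 and Dusp1) and in 17.8% of windows. A CArG box lay in the Zfp36 window, 58 to 49 bases before the start, as it did in 1.47% of all windows. The EGR site occurred in Fosb and Zfp36, against 4.70% of windows. TATAAA was found in Fos (12.4% of windows), and the AP-1 site in none of the 8 (6.75% of windows). A match is a string of letters in this window and was not tested as a binding site. The Jund window, chr8:70697489-70697738 on the plus strand, held no match. It ends upstream of the Jund locus given below, which starts at 70698949, so the sequence next to that start was not searched. The Zfp36, Dusp1 and Atf3 windows lie within the loci given below, and the Fosb window overlaps the end of its locus. Distances in these genes are counted from the RefSeq start, which is downstream of the 5′ end of the locus.

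The AU-rich nonamer TTATTTATT, the form that ZFP36 proteins bind, was searched on the mRNA strand of each 3′ untranslated region of the GENCODE M21 models for GRCm38. It was found in 3 of the 10 genes, Fos, Zfp36 and Dusp1, and in 7.28% of 13034 tested protein-coding genes. Dusp1 held 2 copies. Each is shown with flanking bases, the nonamer in capitals.
Fos: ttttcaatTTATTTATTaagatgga
Zfp36: tgacgactTTATTTATTgtattaag
Dusp1, upstream site: gctggtccTTATTTATTtaacaccc
Dusp1, downstream site: ttttacctTTATTTATTtttgtgta

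The genes also shared a compact structure that the choice by name did not use. All 10 had at most 4 exons in the transcript model used, against 21.5% of 13210 tested protein-coding genes, with a median of 2 exons against 9. The pentamer ATTTA, which the nonamer contains, occurred at a median of 2.89 per kb of 3′ untranslated region against 1.20 per kb over all tested genes, and ranged from 0 per kb in Ier2 to 5.80 per kb in Dusp1. Jun, Junb, Jund and Ier2 have 1 exon in that model. Reads of Jun could not be told apart from antisense Junos over 232 bases of shared exon, nor those of Jund from antisense Gm11175 over 877 bases, since the strand of the libraries is not given in the sources used here.

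Foxo1, the deleted gene, had normalized counts of 467, 274 and 371 in replicates 1, 2 and 3 of CD24negTomato+, and of 695, 518 and 424 in Tomatoneg. In the other table it was at 319, 193 and 201 in CD24+Tomato+ and 748, 529 and 444 in Tomatoneg. It was lower in Tomato+ cells in all 6 same-numbered pairs, by 0.56 on the log2 scale in CD24negTomato+ (limma adjusted P = 0.427) and by 1.27 in CD24+Tomato+ (limma adjusted P = 0.0579, and 0.0219 with the replicate number as a block). These counts cover the whole transcript, so mRNA that lacks only the floxed part still counts. Cd24a matched the gates, at 993 to 2054 in CD24negTomato+, 2944 to 5782 in the Tomatoneg cells of that table and 25857 to 30949 in CD24+Tomato+. Neurog3 was at 15 to 41 in CD24negTomato+, 80 to 147 in the Tomatoneg cells of that table and 1319 to 1364 in CD24+Tomato+.

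Estimated depth was 19158348 to 39234462 reads per library, and all 10 genes lay far above the normalized count worth 3 reads, which was 2.10 to 4.29 and covers counting error only. The 8 epithelial markers, Epcam and Cdh1 among them, were above 0 in every library. The other lineages differed strongly between populations. Summed counts of 8 goblet markers were 2106810 to 2808710 in CD24negTomato+ against 133197 to 204477 in Tomatoneg, with all 8 significantly higher without the block. Summed over 12 EEC markers, CD24negTomato+ was at 121123 to 240317 against 6279 to 14219, with 8 significantly higher without the block and 2 negative. There, 7 Paneth markers summed to 18770 to 48222 against 37664 to 152501, with 7 negative, 0 significant without the block and 4 lower with it. The sum of 8 tuft markers was 371 to 414 against 1362 to 2112, with 3 of 6 tested lower without the block. In CD24+Tomato+ the EEC, goblet, Paneth and tuft sums were all higher than in Tomatoneg. Sums were 348469 to 544641 against 6604 to 14577 for 12 EEC markers (12 significantly higher), 995578 to 1256950 against 148114 to 217560 for goblet markers (8 of 8), 488847 to 2114770 against 40756 to 160803 for 7 Paneth markers (7 of 7) and 13841 to 16680 against 1599 to 2319 for 8 tuft markers (6 of 8). Enterocyte markers went the other way, at 45484 to 148203 against 254966 to 1035590, with 5 of 8 lower. The sum of 8 stromal markers was 2631 to 3156 against 650 to 1399, but most of it was Vim, at 2416, 2546 and 2364 against 253, 409 and 244. Of the 7 stromal markers tested, Vim was significantly higher and the other 6 had negative differences. The sum of 10 lymphocyte markers was 571 to 1098 in CD24negTomato+ and 387 to 503 in CD24+Tomato+, against 2525 to 9518 and 2724 to 9751 in the Tomatoneg cells of the same tables. The sum of 8 myeloid markers was 318 to 538 in CD24negTomato+ and 286 to 373 in CD24+Tomato+, against 424 to 708 and 461 to 778. Of 5 tested, 2 and 3 had positive differences, 0 passed limma in CD24negTomato+ (also 0 before adjustment) and 1 was lower in CD24+Tomato+. S100a8 and S100a9 were at 0 or below 3 reads in every Tomato+ library, but Itgam was at 205 to 395 there. The part of this cell mix in the differences below was not tested, and in bulk RNA fewer cells that express a gene and less RNA per cell cannot be told apart.

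In CD24negTomato+ cells Dusp1, the MAP kinase phosphatase, had the largest difference from Tomatoneg, though it did not pass the test without the replicate block. It was 2.88-fold higher, while the fitted differences of the other 9 genes were between 0.04 and 0.49 on the log2 scale, where a difference of 1 is a change of 2-fold. No gene of the 10 was significantly higher or lower without the replicate block (adjusted P under 0.05, limma over 13420 tested genes), where 0.999% of tested genes were higher and 0.32% lower. Before adjustment, 1 of the 10 was higher and 0 were lower at a limma P under 0.05, near the 10.3% and 6.82% of all tested genes, and with the block 3 and 0, beside 17% and 11.6%. With the block, which compares same-numbered libraries, Dusp1 was higher (4.34% of all tested genes were) and none was lower (2.96%). Dusp1 was also the only gene of the 10 whose 3 CD24negTomato+ values all exceeded the 3 Tomatoneg values, against 14.7% of tested genes, and none lay wholly below, against 10.6%. In all 3 same-numbered pairs 6 were higher (Fos, Fosb, Junb, Egr1, Ier2 and Dusp1; 28.7% of tested genes) and 0 were lower in all 3 (23.6%). The median log2 difference over the 10 genes was 0.36, beside 0.08 over all tested genes.

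In CD24+Tomato+ cells Dusp1, Ier2 and Egr1, a phosphatase and a pair of early nuclear proteins, were significantly higher than in Tomatoneg, 3.90-fold, 2.38-fold and 1.99-fold, whereas Atf3 and Zfp36 had negative fitted differences that did not pass the test. Without the block these 3 of 10 were higher, where 8.02% of 13874 tested genes were higher and 4.89% lower, and none of the 10 was lower. Before adjustment 5 were higher at a limma P under 0.05, beside 16.3% of tested genes, and 0 lower, beside 11.5% (with the block 6 and 0, beside 20.4% and 15.9%). With the block Fosb and Jun were added, 5 of 10 beside 10.8% of tested genes, and again none was lower (9.95%). The values of 7 genes, Fos, Fosb, Jun, Junb, Egr1, Ier2 and Dusp1, lay wholly above Tomatoneg, a pattern of 21.6% of tested genes, and none wholly below (14.4%). In all 3 same-numbered pairs 8 were higher (34.3%) and 1, Atf3, was lower in all 3 (24.1%). The median log2 difference was 0.59 over the 10 genes and 0.16 over all tested genes.

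**Figure D1:**
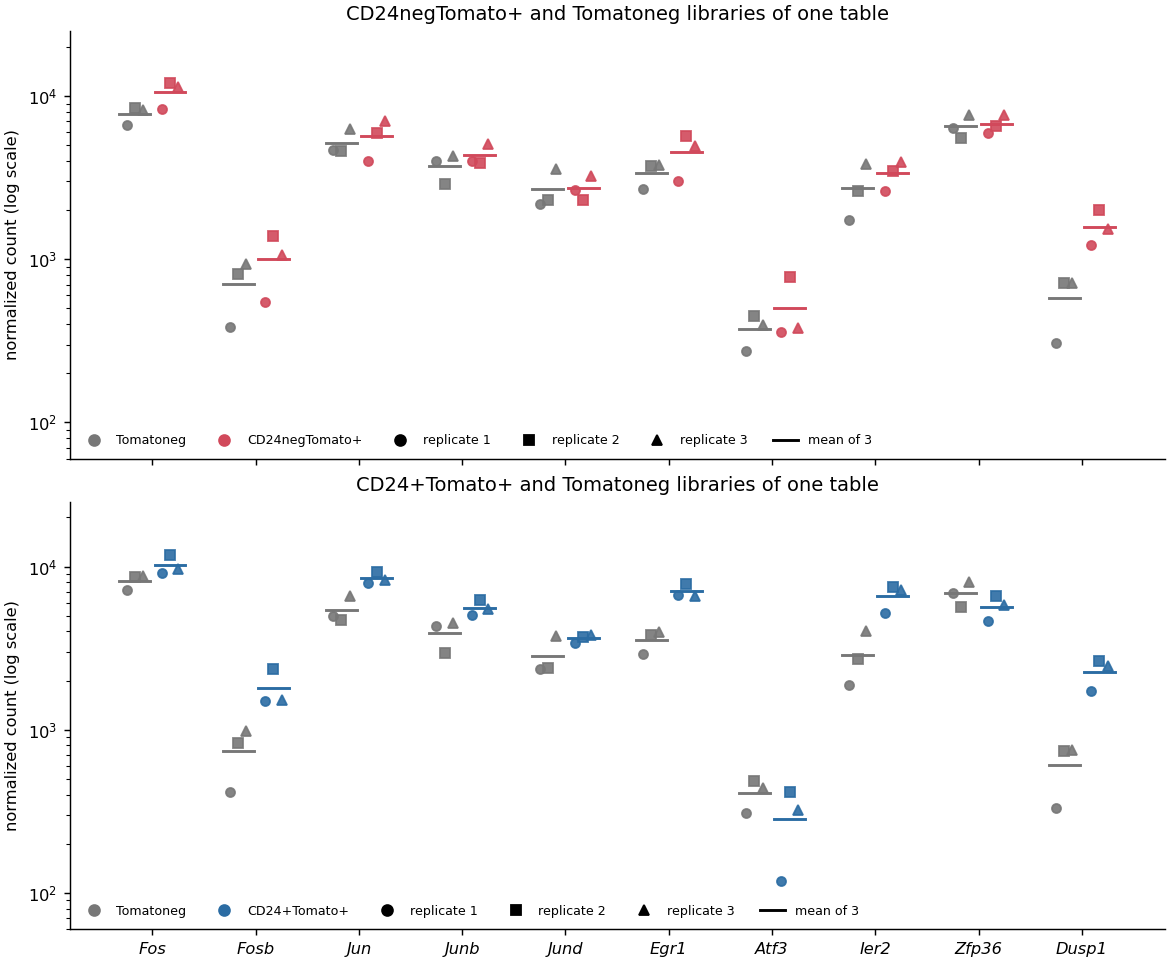
Normalized counts (log scale) of the 10 immediate early genes in each library, with CD24negTomato+ and Tomatoneg cells in the upper panel and CD24+Tomato+ and Tomatoneg cells in the lower panel; symbols give the replicate number and bars the mean of 3. Dusp1 is apart from Tomatoneg in both panels (1226 to 1997 against 307 to 714, and 1725 to 2618 against 333 to 755), and Zfp36 overlaps in both.

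Fos encodes the JUN partner that gives AP-1 its strongest activation, and was the most abundant of the 10 genes by counts and per kb. It lies on chromosome 12 of GRCm38 (85473890 to 85477273, plus strand). In CD24negTomato+ its normalized counts were 8311, 12085 and 11340 in replicates 1, 2 and 3, beside 6655, 8407 and 8265 in Tomatoneg. Replicate 1 was the lowest in each population, and the groups overlapped although each pair was higher in CD24negTomato+, by 0.32 to 0.52 on the log2 scale. The log2 difference was 0.43 ± 0.24 (SE; 95% interval -0.12 to 0.99, limma adjusted P = 0.394). In the other table Fos was at 9064, 11747 and 9650 in CD24+Tomato+ and 7189, 8627 and 8697 in Tomatoneg. These groups did not overlap, but the lowest CD24+Tomato+ value was close to the highest Tomatoneg value, and the difference of 0.31 ± 0.21 had an interval of -0.19 to 0.81 (limma adjusted P = 0.401).

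Fosb, a FOS family subunit known for induction by neuronal activity and depolarization, is on chromosome 7 (19302696 to 19310051, minus strand). It was at 546, 1386 and 1064 in CD24negTomato+ and 383, 810 and 936 in Tomatoneg. Each pair was higher in CD24negTomato+, yet the spread within a population was wider than the difference of 0.49 ± 0.46 (interval -0.58 to 1.56, limma adjusted P = 0.619). In CD24+Tomato+ it was at 1498, 2364 and 1527, all above the 414, 832 and 985 of Tomatoneg. The difference was 1.33 ± 0.37, or 2.51-fold, with a limma adjusted P of 0.0579, and of 0.0151 with the replicate block (SE 0.26). It passed the threshold without the block when Tomatoneg replicate 3 was left out (limma adjusted P = 0.0486).

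Jun, the AP-1 subunit that JNK phosphorylates, is on chromosome 4 (95049034 to 95052222, minus strand). Its counts were 4033, 5904 and 7057 in CD24negTomato+ and 4649, 4600 and 6317 in Tomatoneg. Pair 1 was lower in CD24negTomato+ and pairs 2 and 3 higher, a difference of 0.10 ± 0.27 (interval -0.53 to 0.74, limma adjusted P = 0.871). In CD24+Tomato+ all 3 values, 7889, 9232 and 8241, exceeded the 5006, 4705 and 6625 of Tomatoneg. The difference was 0.65 ± 0.22, or 1.57-fold, with a limma adjusted P of 0.0967, and of 0.0382 with the replicate block. With the block and equal library totals together it was 0.0595.

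Junb and Jund, the JUN relatives that often restrain JUN, lie on chromosome 8, Junb at 84974484 to 84978718 on the minus strand and Jund at 70698949 to 70700616 on the plus strand. Junb was at 4028, 3894 and 5089 in CD24negTomato+ and 3996, 2887 and 4314 in Tomatoneg, with a difference of 0.23 ± 0.24 (interval -0.33 to 0.79, limma adjusted P = 0.662). Jund was at 2675, 2297 and 3233 in CD24negTomato+ and 2187, 2323 and 3593 in Tomatoneg, and its difference was 0.04 ± 0.27 (interval -0.58 to 0.66, limma adjusted P = 0.954). Both overlapped, and Jund was higher in pair 1 and lower in pairs 2 and 3. In CD24+Tomato+ Junb was at 5020, 6241 and 5498 against 4306, 2955 and 4527, groups that did not overlap. Its difference of 0.53 ± 0.23 did not pass the test (limma adjusted P = 0.192), and pair 2 differed most, by 1.08 against 0.22 and 0.28. Jund was at 3381, 3707 and 3816 in CD24+Tomato+ against 2357, 2378 and 3772, where only Tomatoneg replicate 3 reached the CD24+Tomato+ range, with a difference of 0.39 ± 0.24 (interval -0.17 to 0.95, limma adjusted P = 0.339).

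Atf3, a stress-induced factor of the ATF family that pairs with JUN and mostly represses, was the least abundant of the 10 genes by counts, though not always per kb, where Fosb was as low, and was the only one lower in every CD24+Tomato+ pair. It lies on chromosome 1 (191170296 to 191218039, minus strand). In CD24negTomato+ it was at 356, 775 and 380 against 273, 447 and 396 in Tomatoneg, where replicate 2 was the highest in both. The difference was 0.37 ± 0.40 (interval -0.55 to 1.29, limma adjusted P = 0.664), and it was 0.012 without CD24negTomato+ replicate 2. In CD24+Tomato+ it was at 118, 414 and 322 against 310, 482 and 437. Pairs 1, 2 and 3 differed by -1.39, -0.22 and -0.44, but the groups overlapped and the difference of -0.68 ± 0.51 did not pass the test (interval -1.88 to 0.52, limma adjusted P = 0.443, and 0.209 with the block). It moved when single libraries were left out, to -0.14 without CD24+Tomato+ replicate 1 and -1.04 without CD24+Tomato+ replicate 2.

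Egr1, a zinc finger transcription factor induced through SRF, is on chromosome 18 (34859823 to 34864984, plus strand). Its counts were 3038, 5691 and 4968 in CD24negTomato+ and 2695, 3723 and 3763 in Tomatoneg. Each pair was higher in CD24negTomato+ but replicate 1 fell within the Tomatoneg range, and the difference of 0.40 ± 0.29 did not pass the test (interval -0.29 to 1.08, limma adjusted P = 0.521). In CD24+Tomato+ it was at 6688, 7856 and 6579 against 2912, 3822 and 3961. Every CD24+Tomato+ value was well above every Tomatoneg value, a difference of 0.99 ± 0.21 (interval 0.50 to 1.48, limma adjusted P = 0.0246). Leaving out CD24+Tomato+ replicate 1, 2 or 3 raised the limma adjusted P to 0.0780, 0.154 and 0.0900 with differences of 1.02, 0.91 and 1.04, and a fit without a trend in the variance raised it to 0.0629.

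Ier2, a short nuclear protein with a role in growth factor responses, is on chromosome 8 (84661331 to 84662852, minus strand). It was at 2631, 3501 and 3950 in CD24negTomato+ and 1752, 2634 and 3850 in Tomatoneg. The pairs differed by 0.59, 0.41 and 0.04, all in one direction, but the groups overlapped and the difference was 0.34 ± 0.33 (interval -0.41 to 1.10, limma adjusted P = 0.619). In CD24+Tomato+ Ier2 was at 5173, 7455 and 7167 against 1888, 2698 and 4043. The groups did not overlap, and the difference of 1.25 ± 0.31 passed the test (interval 0.51 to 1.98, limma adjusted P = 0.0415). Of the 3 genes past the threshold it was the one that the most of these fits lost. Its call ended when any CD24+Tomato+ library or Tomatoneg replicate 1 or 2 was left out, with limma adjusted P of 0.0519 (without Tomatoneg replicate 1) to 0.184 (without CD24+Tomato+ replicate 2). It also ended with a pseudocount of 0.1 in place of 1 (limma adjusted P = 0.0534) and without a trend (0.0920).

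Zfp36, the RNA-binding protein tristetraprolin, holds the nonamer it binds in its own 3′ untranslated region, and overlapped Tomatoneg in both comparisons. It is on chromosome 7 (28376784 to 28380253, minus strand). It was at 5976, 6567 and 7697 in CD24negTomato+ and 6399, 5522 and 7648 in Tomatoneg, a difference of 0.05 ± 0.22 (interval -0.47 to 0.58, limma adjusted P = 0.924). In CD24+Tomato+ it was at 4640, 6567 and 5776 against 6877, 5637 and 8006, lower in pairs 1 and 3 and higher in pair 2. The difference was -0.27 ± 0.23 (interval -0.82 to 0.27, limma adjusted P = 0.499).

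Dusp1, the dual specificity phosphatase that inactivates MAP kinases, had the largest log2 difference of the 10 genes in each of the 6 same-numbered pairs. Its annotated locus on chromosome 17 runs from 26505590 to 26562128 on the minus strand and overlaps Ergic1, which is on the other strand, without shared exon bases. Its counts were 1226, 1997 and 1523 in CD24negTomato+ and 307, 714 and 714 in Tomatoneg. The highest Tomatoneg value was below the lowest CD24negTomato+ value, and the pairs differed by 1.996, 1.48 and 1.09. The difference of 1.52 ± 0.39 (interval 0.62 to 2.43) had a limma adjusted P of 0.106, and of 0.0228 with the replicate block (SE 0.23). In CD24+Tomato+ Dusp1 was at 1725, 2618 and 2441 against 333, 737 and 755, with pair differences of 2.37, 1.83 and 1.69. The difference was 1.96 ± 0.37, or 3.90-fold (interval 1.10 to 2.82, limma adjusted P = 0.0172, and 0.00128 with the block). Without CD24+Tomato+ replicate 2 or 3 the limma adjusted P was 0.103 and 0.0811, with differences of 1.85 and 1.90.

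**Figure D2:**
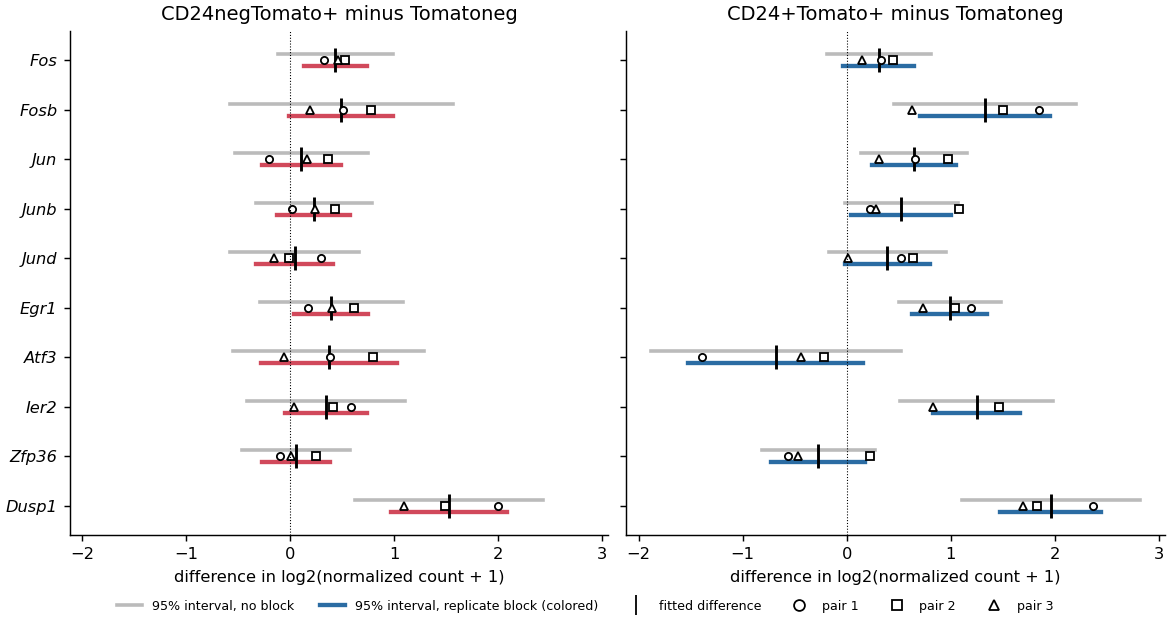
Difference in log2(normalized count + 1) between Tomato+ and Tomatoneg cells for each gene, with CD24negTomato+ on the left and CD24+Tomato+ on the right; the black tick is the fitted difference, open symbols are pairs 1, 2 and 3, and bars are 95% intervals without (gray) and with (colored) the replicate block. Both Dusp1 intervals lie above 0 in both panels and both of Fosb, Jun, Egr1 and Ier2 do so on the right, without adjustment over genes, while those of Zfp36 span 0. With the block only, the intervals of Fos (0.13 to 0.73) and Egr1 (0.04 to 0.75) on the left and Junb (0.046 to 1.01) on the right also lie above 0.

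Ranked by normalized counts per kb of transcript, a level rather than a difference, the order of the genes was similar at the top and bottom of each population. Fos led in all, at 5018 ± 948 per kb (SD, n = 3) in CD24negTomato+, 3689 ± 462 in the Tomatoneg cells of that table and 4817 ± 669 in CD24+Tomato+. In CD24negTomato+ and Tomatoneg, Zfp36 and Junb came next, at 2418 ± 313 and 2397 ± 362 per kb in CD24negTomato+, and could not be separated within their spread. In CD24+Tomato+ Ier2 came next to Fos at 4335 ± 816 per kb, within the spread of Fos, while Zfp36 came below all 3 Jun genes at 2029 ± 347 per kb, within the spread of Jund at 2179 ± 136. Dusp1 came just below Egr1 in each population. Fosb and Atf3 were the lowest in all, and were level at 264 ± 112 and 254 ± 119 per kb in CD24negTomato+ but apart at 475 ± 130 and 144 ± 77 per kb in CD24+Tomato+. The 10 genes together took 0.116% to 0.161% of all normalized counts in CD24negTomato+ libraries and 0.115% to 0.152% in the Tomatoneg libraries of that table, which overlap, and 0.177% to 0.212% in CD24+Tomato+ libraries, above all Tomatoneg libraries.

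The genes also varied together between replicates. In CD24+Tomato+, 9 of the 10 had their lowest value in replicate 1, as did 8 of 10 in CD24negTomato+ and 7 of 10 in Tomatoneg. Over all tested genes, replicate 1 held the lowest value for 35.7% in CD24+Tomato+, 37.0% in CD24negTomato+ and 46.0% in the Tomatoneg cells of that table. The exceptions in Tomatoneg were Jun, Junb and Zfp36, which were lowest in replicate 2. Replicate 1 also differed in marker levels in each population. Its enterocyte sum was the highest, at 783702 against 326204 and 395619 in CD24negTomato+, 148203 against 52171 and 45484 in CD24+Tomato+, and 965353 against 250049 and 283930 in the Tomatoneg cells of the first table. Its Paneth sum was the lowest, at 18770 against 45704 and 48222, 488847 against 2114770 and 1790660, and 37664 against 147933 and 152501 in the same order. Tomatoneg replicate 1 had the fewest genes above 0, at 13025 against 15644 to 18530 in the others, and mitochondrial transcripts took 6.95% to 8.51% of counts in Tomatoneg, 10.5% to 15.8% in CD24negTomato+ and 3.44% to 6.90% in CD24+Tomato+. The part of these in the differences was not tested.

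Other early response genes were called in both directions in CD24+Tomato+. Among 42 tested, 5 were significantly higher and 3 lower without the block, near the 8.02% and 4.89% of all tested genes. With it 10 were higher and 8 lower, beside 10.8% and 9.95%, with a median log2 difference of 0.13 beside 0.16 over all tested genes. Nr4a2, an orphan nuclear receptor, was at 799, 564 and 225.3 against 135, 52.0 and 22.1, and its difference was 3.09 ± 0.77 (limma adjusted P = 0.0400). Plk2, a stress-responsive kinase, was at 359, 295 and 189 against 25.2, 37.7 and 43.6, with a difference of 2.93 ± 0.51 (limma adjusted P = 0.0139). Klf2, a Krüppel-like factor, was at 396, 904 and 876 against 44.9, 135 and 153, a difference of 2.78 ± 0.58 (limma adjusted P = 0.0238). All 3 were clear of Tomatoneg in every library. Arc, known from active synapses, was at 297, 921 and 347 against 0, 89.0 and 64.2, and passed only with the block (limma adjusted P = 0.111, and 0.0291 with it).

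On the lower side, Pim1, Tnfaip3 and Ier5 were below Tomatoneg in every CD24+Tomato+ library. Pim1, a cytokine-induced kinase, was at 591, 451 and 521 against 1729, 1223 and 1717, a difference of -1.57 ± 0.25 (limma adjusted P = 0.0102). Tnfaip3, an inhibitor of NF-κB signaling, differed by -1.31 ± 0.32 (limma adjusted P = 0.0371) and Ier5 by -1.28 ± 0.24 (limma adjusted P = 0.0177). Sgk1, a kinase induced by glucocorticoids, was at 411, 94.9 and 100.4 against 3593, 555 and 356, with overlap between groups, and passed only with the block (limma adjusted P = 0.133, and 0.00381 with it).

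In CD24negTomato+, 0 of 41 other early response genes passed limma without the block. Before adjustment, 6 were higher and 1 lower at a limma P under 0.05, beside 10.3% and 6.82% of all tested genes. With the block these were 12 and 1, beside 17% and 11.6%. After adjustment with the block 2 were higher and 1 lower, beside 4.34% and 2.96%, with a median log2 difference of 0.45 beside 0.08. In all 3 same-numbered pairs 19 were higher and 8 lower, beside 28.7% and 23.6%. Klf4, a factor of differentiated epithelium and goblet cells, was at 7809, 6844 and 4170 against 3112, 1506 and 1223 (1.76 ± 0.40, limma adjusted P = 0.0821, and 0.0101 with the block). Errfi1, a feedback inhibitor of EGFR, was at 2186, 1500 and 1375 against 963, 661 and 551 (1.23 ± 0.30, limma adjusted P = 0.0986, and 0.0183 with the block). Myc, which marks proliferating crypt cells, was at 88.8, 162 and 278 against 392, 704 and 1055 (-2.06 ± 0.53, limma adjusted P = 0.109, and 0.0144 with the block). None of these 3 overlapped Tomatoneg, and all passed only with the block. The sum of 6 stem cell markers differed in the direction of Myc, at 4390 to 6018 in CD24negTomato+ against 11097 to 31016 in Tomatoneg, and that of 8 goblet markers in the direction of Klf4. The part of either in these differences was not tested.

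Among the remaining AP-1 subunits, Batf2 and, with the block, Fosl2 were lower in CD24+Tomato+. Of 5 tested, 1 was lower without the block and 2 with it, beside 4.89% and 9.95% of all tested genes, none was higher (8.02% and 10.8%), and the median log2 difference was -0.36. Batf2, a partner of JUN in immune cells, was at 298, 234 and 394 against 1310, 1180 and 1345 (-2.08 ± 0.28, limma adjusted P = 0.00676). Fosl2, a FOS relative, was at 1591, 1116 and 1170 against 3500, 1880 and 2163 (-0.92 ± 0.29, limma adjusted P = 0.0811, and 0.0103 with the block). Fosb and Fosl2, subunits of 1 family, differed from Tomatoneg in opposite directions with the block. In CD24negTomato+ 0 of 5 passed limma in either fit, with 0 before adjustment without the block and 1 lower with it (11.6% of all tested genes).

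Among relatives of Dusp1 and Zfp36, and among the kinases and factors that act before them, at most 1 gene passed the test in either fit of a comparison. Over all tested genes the shares were 0.999% higher and 0.32% lower in CD24negTomato+ and 8.02% and 4.89% in CD24+Tomato+ without the block, and 4.34% and 2.96%, and 10.8% and 9.95%, with it, so lists of this size would hold few calls at those rates. Of 12 DUSP and ZFP36 relatives, 0 passed limma in CD24negTomato+ in either fit (0 at an unadjusted P under 0.05 without the block, and 2 higher and 1 lower with it, beside 17% and 11.6% of all tested genes), and in CD24+Tomato+ 1 passed only with the block. That was Dusp4, a nuclear MAP kinase phosphatase, at 337, 303 and 158 against 85.1, 138 and 38.2 (1.71 ± 0.60, limma adjusted P = 0.112, and 0.0434 with the block). The medians of the log2 difference were 0.34 and -0.02. Of 22 upstream kinases and transcription factors, Srf and Creb1 included, 0 passed limma in CD24negTomato+ in either fit (2 higher at an unadjusted P under 0.05 without the block, and 3 with it, beside 10.3% and 17%). In CD24+Tomato+ 1 passed, only with the block, namely Rps6ka1, the ERK target kinase RSK1, at 8136, 7530 and 9133 against 12314, 9706 and 14396 (-0.54 ± 0.23, limma adjusted P = 0.182, and 0.0413 with the block).

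Heat shock genes, which tissue stress also induces, had a negative median log2 difference in CD24negTomato+. It was -0.39 over 13 genes, 0 passed limma without the block (before adjustment, 1 was higher and 1 lower at a P under 0.05, beside 10.3% and 6.82% of all tested genes), and Hspe1 and Hsp90ab1 were lower with it (2.96%). Hsp90ab1, a chaperone of kinases, was at 16442, 22222 and 20034 against 32884, 33368 and 33848 (-0.78 ± 0.24, limma adjusted P = 0.159, and 0.0335 with the block). Hspe1, the mitochondrial co-chaperonin, was at 1052, 2259 and 2443 against 1980, 3952 and 4588, with overlap between groups (limma adjusted P = 0.346, and 0.0249 with the block). In CD24+Tomato+ the median was -0.11, and Hspb1 alone passed, in both fits (8.02% and 10.8% of all tested genes were higher). This small heat shock protein was at 217, 176 and 57.0 against 0, 0 and 3.36 in Tomatoneg, all of which are below 3 reads, with a limma adjusted P of 0.0105.

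**Figure D3:**
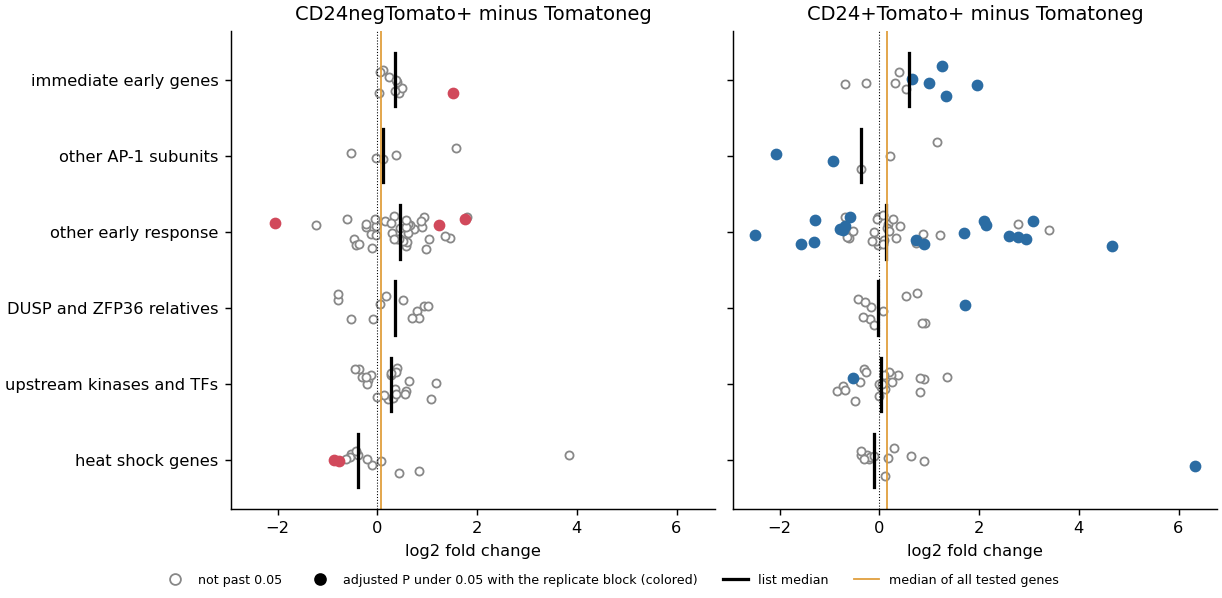
Log2 difference between Tomato+ and Tomatoneg cells for the 10 immediate early genes and 5 related lists, one point per tested gene, with CD24negTomato+ on the left and CD24+Tomato+ on the right; filled points have a limma adjusted P under 0.05 with the replicate block, black lines are list medians and the orange line is the median of all tested genes. In CD24+Tomato+ the 10 genes have a median of 0.59 with 5 filled points above 0, and the other AP-1 subunits a median of -0.36 with 2 filled points below 0.

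The scale set for the libraries moved several of these values. When library totals were made equal, the median log2 difference of all tested genes in CD24negTomato+ moved from 0.08 to -0.12, and Jun, Jund and Zfp36 turned negative, to -0.095, -0.16 and -0.15. Dusp1 stayed at 1.32 ± 0.41 there (limma adjusted P = 0.147, and 0.0278 with the block). In CD24+Tomato+ equal totals left the same 3 genes past the threshold, with differences of 1.97 for Dusp1, 1.25 for Ier2 and 0.996 for Egr1. Quantile normalization brought 6 genes past it, those 3 with Fosb, Jun and Junb, and moved Zfp36 from -0.27 to 0.0020.

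**Figure D4:**
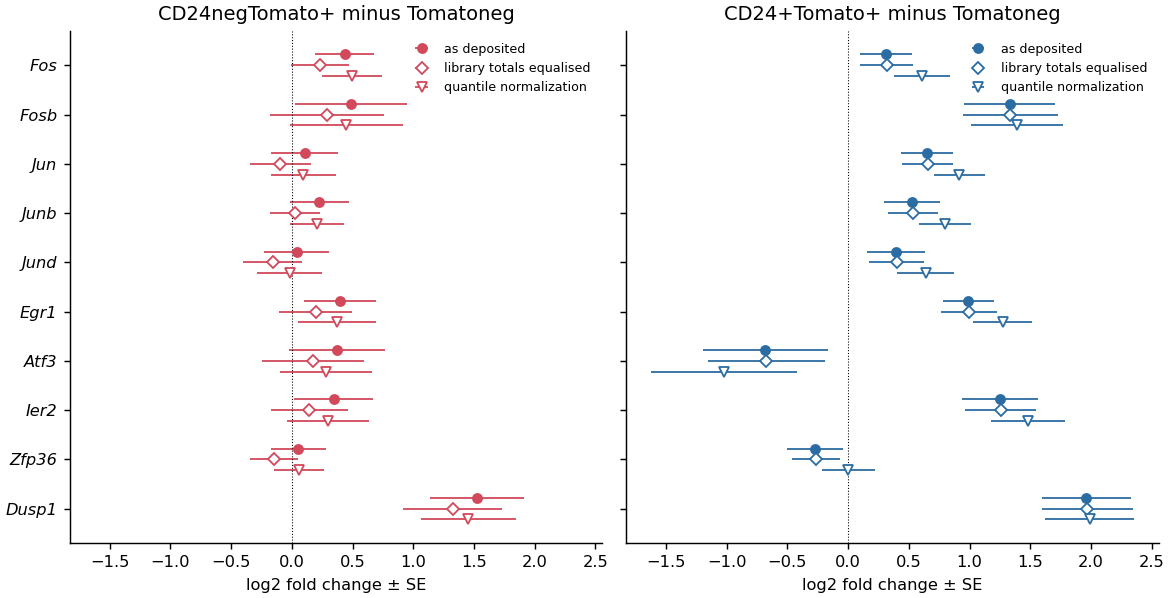
Log2 difference (± SE) between Tomato+ and Tomatoneg cells for each gene as deposited, with library totals made equal, and with quantile normalization, for CD24negTomato+ on the left and CD24+Tomato+ on the right. Dusp1 stays between 1.32 and 1.52 on the left and between 1.96 and 1.99 on the right, while Jun, Jund and Zfp36 cross 0 on the left.

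Outside the lists, the genes whose log2 values followed the mean of the 10 most closely over the 6 libraries of the CD24negTomato+ table were Abcc3, Lpcat2, Cd9, Krt7 and Capn5, with Pearson's r of 0.993 to 0.984. In the CD24+Tomato+ table they were Dnttip1, Dnaaf2, Rpp25l, 1700010I14Rik and Yae1d1, with r of 0.993 to 0.983. These are the highest values among all tested genes, computed on only 6 libraries, and they describe likeness of pattern only. Cd9, a tetraspanin, was at 1361 ± 362 in CD24negTomato+ and 878 ± 259 in Tomatoneg (SD, n = 3), and no gene of the 5 in either table passed the test in either fit.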

How the data were processed

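Poly-A mRNA of the 3 sorted populations (3 replicates each) was sequenced by the authors from Illumina TruSeq libraries. The deposited values are a signal, for which the authors estimated counts per gene with kallisto and normalized them with DESeq2 within each of 2 tables of 6 libraries. Differences were therefore fitted only within a table. Levels printed side by side from both tables are on slightly different scales. The shared Tomatoneg libraries had median ratios of 1.02 to 1.08 between the CD24+Tomato+ table and the other. The submitters' processing notes name bcl2fastq 2.19, kallisto 0.44.0, sleuth, DESeq2 and the genome build GRCm38. The annotation release is not given in the sources used here.

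Linear models were fitted to log2(normalized count + 1) of every gene whose mean in a table reached 10, with lmFit and a trended eBayes from limma 3.58.1 (R 4.3.3), two-sided, with Benjamini-Hochberg adjustment over all tested genes and a threshold of 0.05. A log2 difference on this scale understates the change of low genes. DESeq2 was the authors' test and was not rerun, because the values are not whole reads. Depth was estimated by dividing a library's total by its most common low value, taken as 1 read. Scripts were tested on simulated data with planted log2 changes of 2 and 3, and 100% of these were recovered. False calls made up 1.48% (CD24negTomato+) and 1.96% (CD24+Tomato+) of calls without the block. With the block they made up 7.41% and 2.91%. Smaller changes were not simulated. Tables were handled in Python 3.11.15 (numpy 2.4.6, pandas 2.3.3), and figures were drawn with matplotlib 3.10.9.

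Libraries were grouped by their labels, which call the replicates biological but do not say whether they came from separate mice, so P values measure the spread between these samples. Adding the replicate number to the model as a block compares same-numbered libraries. The numbers come from the labels, which do not say whether they mark shared mice or a shared sort. Across tested genes, same-numbered libraries deviated together from their group means, with correlations of 0.29 to 0.34 in the CD24negTomato+ table and 0.18 to 0.38 in the CD24+Tomato+ table.

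The 10 genes, the related lists and the markers were chosen with earlier results of these data known. Named genes are all 10, Foxo1, Neurog3 and Cd24a, and, in each related list, at most 4 per comparison and direction with the largest difference among those past the threshold in either fit. The 5 genes per table most like the mean of the 10 were also named. Levels per kb use the length of the principal protein-coding transcript of GENCODE M21, and promoter windows of Ier2 and Egr1 were not analysed here. Alternatives were pseudocounts of 0.1 and 10, no filter and a mean of at least 50, equal library totals, quantile normalization, no trend, the replicate block, the block with equal totals, and leaving out each library or pair.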

Additional observations from a re-analysis of the deposited data

How the results depend on the processing

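Same-numbered libraries were treated as pairs, though the labels do not say that they share mice or a sort, and calls made only with the block rest on this. With the replicate block 1 of the 10 genes (Dusp1) was higher in CD24negTomato+ in place of 0, also with equal library totals, and 5 in CD24+Tomato+ in place of 3. The block changed no other call among the 10. In CD24+Tomato+ the count of higher genes was 6 with quantile normalization, 4 with a pseudocount of 10 (Fosb added), 2 with a pseudocount of 0.1 (Ier2 lost) and 1 without a trend (Dusp1). Leaving out a library or a pair gave 0 to 4 there and 0 to 0 in CD24negTomato+ (limma; 1 of 10 at an unadjusted P under 0.05 with all libraries). In CD24+Tomato+ it was 0 without CD24+Tomato+ replicate 2 or 3 and without pair 2 or 3, fits with fewer samples. No setting made any of the 10 significantly lower. The count lower in all pairs ranged from 0 to 1 in CD24negTomato+ and from 1 to 2 in CD24+Tomato+ when libraries were left out, since fewer pairs then need to be lower.

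The median log2 difference over the 10 genes in CD24negTomato+ was 0.16 with equal library totals, with or without the block, and 0.13 to 0.54 when libraries were left out, the ends of that range being without Tomatoneg replicate 1 and without CD24negTomato+ replicate 1. In CD24+Tomato+ it was 0.38 to 0.73 when libraries were left out and 0.59 to 0.86 under the other settings. Small differences changed sign in CD24negTomato+. With equal totals, with or without the block, Jun was at -0.095, Jund at -0.16 and Zfp36 at -0.15, and with quantile normalization Jund was at -0.017. Without single libraries or pairs the lowest values were -0.073 for Jun, -0.093 for Jund and -0.060 for Zfp36, and the highest 0.33, 0.26 and 0.17. Other fits without a library or pair also gave -0.087, -0.084 and -0.050 for Jund, -0.046 and -0.045 for Zfp36 and -0.023 for Jun. In CD24+Tomato+ Zfp36 was at 0.0020 with quantile normalization. The cause was not tested. When libraries were left out, other differences of CD24negTomato+ also moved by over 1.5 times, to between 0.012 and 0.59 for Atf3, 0.057 and 0.63 for Ier2, 0.096 and 0.87 for Fosb, 0.052 and 0.34 for Junb and 0.21 and 0.66 for Egr1, as did those of Atf3 (-1.04 to -0.14), Zfp36 (-0.52 to -0.13), Fos (0.20 to 0.39), Junb (0.25 to 0.68) and Jund (0.27 to 0.62) in CD24+Tomato+. Dusp1 was positive under all 18 alternatives in each comparison, at 1.12 to 1.74 in CD24negTomato+ and 1.58 to 2.17 in CD24+Tomato+.

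Over all tested genes, the count higher in CD24negTomato+ was 93 to 582 across settings and 0 to 617 when libraries were left out, beside 134, and that lower was 19 to 822 and 0 to 442, beside 43. In CD24+Tomato+ the counts were 731 to 1504 and 3 to 1620 higher, beside 1113, and 429 to 1381 and 0 to 858 lower, beside 678. Without Tomatoneg replicate 1 the CD24negTomato+ counts were 617 and 442. The lowest value of the 10 genes was 118 normalized counts (Atf3). Estimated depth was 19158348 to 24373149 reads in Tomatoneg and 27723742 to 39234462 in Tomato+ libraries, and its part in the differences was not tested.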

Other observations

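The inducible Hsp70 genes, which were looked at after their values were seen, differed more between replicates than between populations. In CD24negTomato+ Hspa1a was at 275, 920 and 4925 normalized counts in replicates 1, 2 and 3, beside 426, 1722 and 5108 in the Tomatoneg libraries of that table, and at 612, 1385 and 3373 in CD24+Tomato+. Hspa1b was at 554, 1321 and 6531 in CD24negTomato+, 544, 2163 and 5198 in Tomatoneg and 1120, 2005 and 4490 in CD24+Tomato+. In all 3 populations replicate 3 held the highest and replicate 1 the lowest value of both genes. These near-identical paralogs share reads, so their separate counts are uncertain. Sgk1 was spread the other way, with its highest value in replicate 1 of each population, at 2712, 3254 and 411 in CD24negTomato+, Tomatoneg (same table) and CD24+Tomato+, against 94.9 to 529 in the other replicates of these populations. Of the 10 immediate early genes, Fos, Fosb, Atf3, Ier2 and Dusp1 had their lowest value in replicate 1 of every population, and none had its highest there.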
